A study of Mus musculus with 12 samples.

Results

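The genes described here are Sphkap and 9 genes of the machinery that anchors and assembles protein kinase A (PKA), the cAMP-dependent protein kinase, measured in the descending aorta of ageing mice. The 10 genes were taken by their symbol on the array: the anchoring proteins Sphkap, Akap5, Akap6 and Akap12, the regulatory subunits Prkar1a, Prkar1b, Prkar2a and Prkar2b, and the catalytic subunits Prkaca and Prkacb. They were covered by 18 of 55630 gene probes, and all 18 probes stood well above background on enough arrays to be tested, among 27583 probes and 16759 genes tested in all. Sphkap was chosen by its measured difference between the ages, and the other genes were added by function with results of these data already known. The age difference of Sphkap is therefore given as a description without a test.

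RNA came from 6 male C57BL/6 mice aged 20 months and 6 male C57BL/6 mice aged 6 months, all on standard chow, with 1 mouse on each of 12 single-colour (Cy3) Agilent arrays. The vessel had been rinsed through the heart's left ventricle and freed of surrounding fat before freezing. Signals are given on the log2 scale relative to the 75th percentile of the gene probes on the same array, so a value of 0 lies at that percentile and a difference of 1 is a doubling. Signals of different probes depend on the probe and are not compared with each other.

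PKA is held inactive by its regulatory subunits and is released when cAMP binds to them. A-kinase anchoring proteins (AKAPs) bind the regulatory subunits and place the enzyme beside its substrates, at the plasma membrane, the sarcoplasmic reticulum or the nuclear envelope. In arterial smooth muscle, cAMP and PKA are known for relaxing the vessel. The regulatory subunits come in type I (the products of Prkar1a and Prkar1b) and type II (the products of Prkar2a and Prkar2b), and most AKAPs prefer type II. The product of Sphkap, first described as a partner of sphingosine kinase, is unusual in preferring type I. Prkar1b is known mainly from neurons, Prkar2b from fat, brain and endocrine tissue, and Prkar1a, Prkar2a and Prkaca from nearly every tissue.

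The promoters of the 2 genes that were higher at 20 months were compared with that of Prkar1a, the other type I regulatory subunit, for the cAMP response element, the site of the CREB transcription factors that PKA phosphorylates. The sequences are RefSeq's, of build GRCm38.p6, and run 5′ to 3′ on the gene's strand across 250 bases before and 50 after an annotated start site. RefSeq promoters were found for 9 of the 10 genes, 22 promoters in all, with Akap12 not matched. Capitals mark the palindromic element TGACGTCA or its shorter core TGACG, searched on both strands (the core also as CGTCA). Each full element contains overlapping cores on both strands.
Sphkap promoter, chr1:83408151-83408450, minus strand: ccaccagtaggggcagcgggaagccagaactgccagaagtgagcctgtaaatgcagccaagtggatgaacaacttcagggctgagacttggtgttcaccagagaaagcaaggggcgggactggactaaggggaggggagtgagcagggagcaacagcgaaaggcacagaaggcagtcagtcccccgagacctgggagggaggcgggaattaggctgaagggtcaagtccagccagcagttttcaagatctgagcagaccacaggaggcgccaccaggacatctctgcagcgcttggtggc
Prkar1b promoter, chr5:139149952-139150251, minus strand: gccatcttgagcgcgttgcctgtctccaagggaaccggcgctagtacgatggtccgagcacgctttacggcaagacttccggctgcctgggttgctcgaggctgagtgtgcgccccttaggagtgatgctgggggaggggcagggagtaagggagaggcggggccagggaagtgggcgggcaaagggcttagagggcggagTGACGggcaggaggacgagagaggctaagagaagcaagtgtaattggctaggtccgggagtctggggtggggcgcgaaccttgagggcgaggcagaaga
Prkar1a promoter, chr11:109650699-109650998, plus strand: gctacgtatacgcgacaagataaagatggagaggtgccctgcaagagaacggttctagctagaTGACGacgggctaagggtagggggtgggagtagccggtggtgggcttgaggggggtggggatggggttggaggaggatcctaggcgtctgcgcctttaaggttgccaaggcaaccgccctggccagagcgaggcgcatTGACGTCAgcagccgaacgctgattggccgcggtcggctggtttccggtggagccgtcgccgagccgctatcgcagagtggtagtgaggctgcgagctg
The Sphkap window held neither the element nor the core. The Prkar1b window is the 1 of 5 for that gene with a core, whose first base lay 49 bases before the start. The Prkar1a window held the full element, 49 bases before the start, and an overlapping window of the same gene held the same copy. The full element was present in 588 of 32851 RefSeq promoters of this length (1.79%) and in 2 of the 22 member promoters, both of Prkar1a. The core was present in 20.8% of all such promoters and in 7 of the 22.

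Sphkap was measured by 2 probes on the minus strand of chromosome 1. The array files place the brighter probe at chr1:83252362-83252421 and the dimmer at chr1:83272326-83272385 (build mm9), further towards the start of the gene. Gene models of that build were not used here. The sequence of the dimmer probe, from the array files, is shown because its signal is described beside that of the brighter one.
Sphkap dimmer probe, chr1:83272326-83272385, minus strand: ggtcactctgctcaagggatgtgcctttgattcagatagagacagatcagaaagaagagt

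Sphkap signal was higher in the older aortas. On the brighter probe the 6 arrays at 20 months ranged from 0.37 to 1.28 with a median of 0.97, and the 6 arrays at 6 months ranged from -1.16 to 0.17 with a median of -0.32. Every older mouse lay above every younger mouse, and the gap between the groups was narrow, since 20 months replicate 1 (0.37) and 6 months replicate 5 (0.17) were close. The means were 0.93 ± 0.34 at 20 months and -0.43 ± 0.51 at 6 months (SD, n = 6 each), a difference of 1.37 ± 0.22 (SE) or 2.58-fold. By size this rise ranked 13 among 16759 genes, a rank that the choice of the gene already implies. The dimmer Sphkap probe ranged from -2.38 to -1.58 at 20 months (median -2.11) and from -4.09 to -2.23 at 6 months (median -3.32), a difference of 1.25 ± 0.31 (SE). It was well above background in 6 of 6 older mice and in 3 of 6 younger mice, and its groups overlapped at the margin. Both Sphkap probes deviated from the means of their age in the same mice (Pearson's r = 0.85 across the 12 arrays, as a description).

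Prkar1b, which encodes the type I regulatory subunit RIβ, rose with age. Its brighter probe (chr5:139493271-139493330, mm9, minus strand) ranged from -0.33 to -0.03 at 20 months, with a median of -0.19, and from -1.37 to -0.63 at 6 months, with a median of -1.10. The groups did not overlap, and the older mice were the more uniform: the means were -0.19 ± 0.12 at 20 months and -1.06 ± 0.26 at 6 months (SD, n = 6 each). The difference was 0.88 ± 0.12 (SE, 95% confidence interval 0.63 to 1.13), or 1.84-fold, with an adjusted p of 0.0087 in the limma fit over all genes. It ranked 8 among 16759 genes by p and 43 by the size of the rise.

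A dimmer Prkar1b probe (chr5:139494151-139494210, mm9, minus strand) was well above background in 6 of 6 older mice and in 1 of 6 younger mice, so it could be tested only because of its signal in the older group. It ranged from -3.01 to -2.34 at 20 months, with a median of -2.59, and from -4.41 to -3.33 at 6 months, with a median of -3.95. These values are given as a description, without a test, since most readings at 6 months were at background. Within an age the readings of the Prkar1b probes did not follow each other from mouse to mouse (r = -0.42 across the 12 arrays, as a description).

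**Figure D1:**
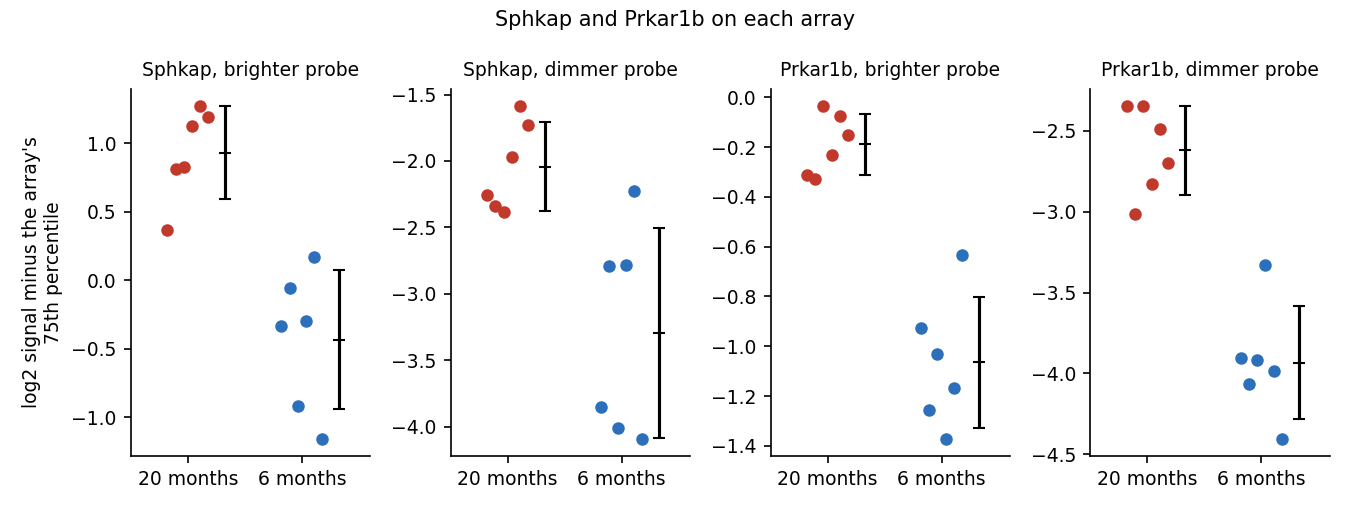
Log2 signal relative to each array's 75th percentile for the brighter and dimmer probes of Sphkap and Prkar1b. Each point is 1 mouse, 6 at 20 months (left, red) and 6 at 6 months (right, blue), and the black bars give the mean ± SD. The 2 ages separate on every panel except the dimmer Sphkap probe, where the highest mouse at 6 months (-2.23) reaches into the range at 20 months.

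Of the 9 members other than Sphkap, 1, Prkar1b, was called higher at 20 months, and 0 were called lower. Sphkap is left out of this count because the same contrast chose it. Across all genes tested, 44 of 16759 (0.263%) were called higher and 9 (0.0537%) lower, at an adjusted p under 0.05. Since the members were chosen with earlier results known, these counts are set side by side and nothing is read from them. Among these 9 members Prkar1b was also the 1 whose groups did not overlap, with the older mice above, as 0.621% of all genes did (and 0.580% of all probes). Genes called in either direction made up 0.316%. The median difference over the 10 members was 0.01, beside -0.02 over all genes tested. Without the 3 arrays high in heart muscle or T and NK cell markers (20 months replicate 1 and 6 months replicates 1 and 4) Prkar1b differed by 0.86 (adjusted p = 0.0426 by limma), and the Sphkap difference was 1.54.

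The 6 arrays at 20 months all lay in column 3 of their slides, while those at 6 months lay in column 1 or, for 1 array, column 4, so column position and age cannot be told apart for any member. The 3 slides each held 2 arrays of each age, and slide 3 was scanned on a later day. Within slides 1, 2 and 3 the Sphkap difference was 1.08, 1.22 and 1.80, and the Prkar1b difference was 0.82, 1.08 and 0.73. On both brighter probes every older mouse lay above every younger mouse. The sign on each slide was thus fixed in advance, and these differences describe only the size. In whole vessels, fewer cells of a type and less RNA per cell cannot be told apart.

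The other anchoring proteins did not pass the test. Akap5, whose product tethers PKA, protein kinase C and calcineurin at the plasma membrane, ranged from -1.28 to -0.13 at 20 months (median -0.52) and from -0.82 to 0.06 at 6 months (median -0.36). Its difference was -0.20 ± 0.19 (SE), with a confidence interval of -0.62 to 0.21 and an adjusted p of 0.806. The ages overlapped broadly, and Akap5 differed by 0.22, -0.64 and -0.19 on slides 1, 2 and 3, so its sign was not the same on every slide. Akap6 encodes the anchor of the nuclear envelope in muscle cells. Its brighter probe ranged from -0.46 to 0.20 at 20 months and from -0.56 to 0.31 at 6 months, with a difference of -0.03 ± 0.15 (SE, interval -0.36 to 0.30, adjusted p = 0.975). A second Akap6 probe, measured above background in 4 of 6 older mice and 5 of 6 younger mice, differed by -0.38 ± 0.23 (adjusted p = 0.741 over all probes). Akap12, also called gravin, binds PKA and protein kinase C near beta-adrenergic receptors. Its brighter probe ranged from 3.36 to 3.63 at 20 months and from 3.36 to 3.86 at 6 months. The difference of Akap12 was -0.06 ± 0.09 (SE), and its interval of -0.25 to 0.13 leaves out a change in either direction as large as that of Prkar1b. The intervals given above for Akap5 and Akap6 leave out such a change as well. On slides 1, 2 and 3 Akap12 differed by -0.15, 0.15 and -0.18, so its sign was not the same on every slide. The dimmer Akap12 probe differed by -0.16 ± 0.13 (adjusted p = 0.796), and within an age it hardly followed the brighter one (r = 0.12).

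Among the regulatory subunits, Prkar1b stood apart from its close relative. Prkar1a, the widely expressed type I subunit RIα, ranged from 2.66 to 3.09 at 20 months and from 2.51 to 3.09 at 6 months on its brighter probe. The groups of Prkar1a covered nearly the same span, and the difference was 0.04 ± 0.11 (SE, interval -0.20 to 0.27, adjusted p = 0.950). A second Prkar1a probe read 2.17 to 2.43 at 20 months and 1.78 to 2.33 at 6 months, a difference of 0.22 ± 0.10 with an unadjusted p of 0.0419 and an adjusted p of 0.641, so it did not pass over all probes. The 2 Prkar1a probes did not track each other within an age (r = -0.10). Whether Prkar1b and Prkar1a differed in their response was not tested, but the confidence intervals of their brighter probes do not meet. Prkar2a, the widely expressed type II subunit RIIα, ranged from -0.02 to 0.57 at 20 months and from -0.15 to 0.91 at 6 months. Its difference was 0.08 ± 0.18 (SE, interval -0.31 to 0.47, adjusted p = 0.925). Prkar2b, the type II subunit RIIβ, had 3 probes. The brightest ranged from 5.81 to 6.67 at 20 months (median 6.05) and from 5.93 to 7.19 at 6 months (median 6.28), a difference of -0.21 ± 0.21 (SE, interval -0.65 to 0.24, adjusted p = 0.815). All 3 Prkar2b probes gave like differences, from -0.21 to -0.17, and moved together between mice (r between 0.93 and 0.95). On slides 1, 2 and 3 the Prkar2b difference was 0.10, -0.17 and -0.56.

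The catalytic subunits did not pass the test either. Prkaca, which encodes the main catalytic subunit Cα, ranged from -0.59 to 0.11 at 20 months and from -0.59 to -0.08 at 6 months, a difference of 0.08 ± 0.12 (SE, interval -0.18 to 0.34, adjusted p = 0.888). Prkacb, which encodes Cβ, ranged from 5.02 to 5.27 at 20 months and from 4.85 to 5.40 at 6 months on its brighter probe. The older mice lay within the span of the younger, and the difference was -0.02 ± 0.10 (SE, interval -0.23 to 0.19, adjusted p = 0.977). Its second probe differed by -0.08 ± 0.12. For these 8 members other than Sphkap and Prkar1b a missed threshold does not show that the ages were alike, and the intervals give the sizes still allowed.

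**Figure D2:**
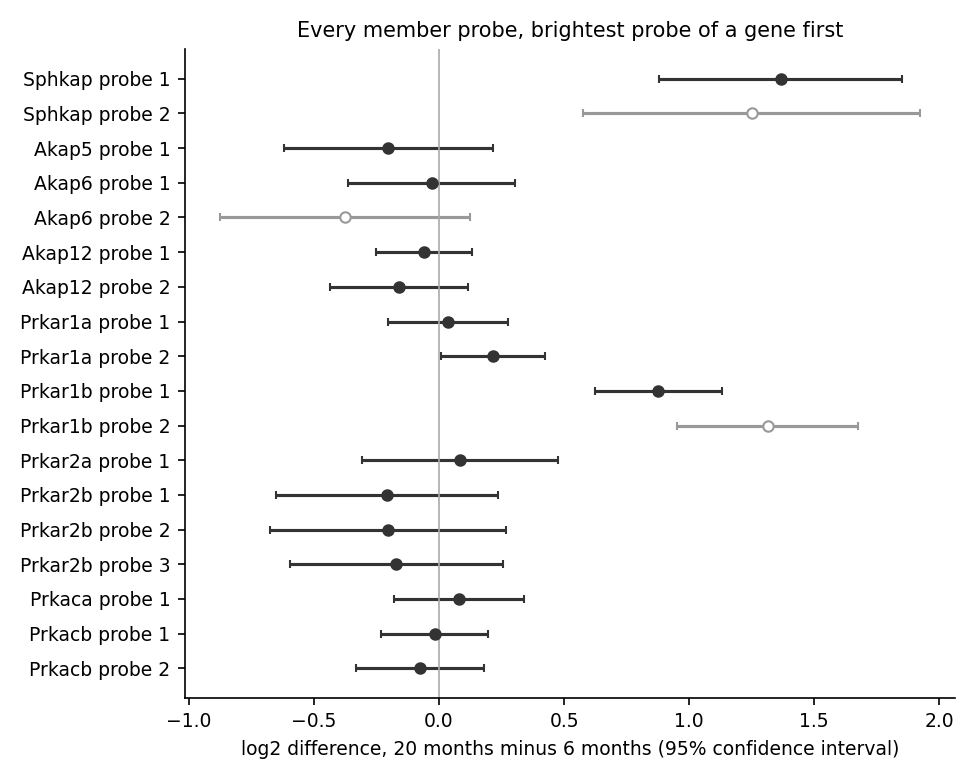
Log2 difference (20 months minus 6 months) of all 18 member probes with the 95% confidence interval from limma's fit over all probes, ordered by gene and then from bright to dim. Open grey symbols mark probes that were not well above background on all 12 arrays. The probes of Sphkap and Prkar1b, of which the open ones rest on readings near background at 6 months, lie at 0.88 or more, and the other 14 lie between -0.38 and 0.22. The intervals of the Sphkap probes and of the dimmer Prkar1b probe are drawn as a description and are not read as tests.

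Mice of the same age also differed, and this variation was not used to choose the genes. For each mouse the mean of its age was subtracted, and Sphkap was correlated with the 9 other members over the 12 mice, with 100000 permutations within the ages and p-values adjusted over the 9 members. Prkar2b ran opposite to Sphkap (Pearson's r = -0.92, permutation p = 0.00014, adjusted p = 0.00126, and Spearman's rho = -0.89, adjusted p = 0.0106). Mice with more Sphkap signal for their age had less Prkar2b signal at both ages. Without the 2 arrays farthest from the median of Sphkap (20 months replicate 1 and 6 months replicate 6) r was -0.83. With the mean of each age on each slide subtracted r was -0.95, which did not pass (adjusted permutation p = 0.0724). That design has only 64 distinct permutations, and its smallest possible p is 0.0312 before adjustment. After adjustment over the 9 members a relation could pass only if most members reached that smallest p. Nothing is therefore read from a miss within slides. Without the 3 arrays high in heart muscle or T and NK cell markers r was -0.90 over 9 mice and did not pass either (adjusted permutation p = 0.202).

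Akap6 and Prkacb ran with Sphkap. Akap6 had r = 0.80 (adjusted permutation p = 0.0193) and rho = 0.76 (adjusted p = 0.0387), with r = 0.74 without the 2 farthest arrays and 0.80 within slides (adjusted permutation p = 0.0724). Prkacb had r = 0.81 (adjusted permutation p = 0.0193) and rho = 0.76 (adjusted p = 0.0387), with r = 0.69 without the 2 farthest arrays and 0.91 within slides (adjusted permutation p = 0.122). Neither relation passed without those 2 arrays (adjusted permutation p = 0.183 for each). Within slides a pass was hardly possible, so nothing is read from those misses. Without the 3 arrays highest in brown adipocyte markers (20 months replicate 1 and 6 months replicates 3 and 6) r fell to 0.45 for Akap6 and 0.30 for Prkacb (adjusted permutation p = 0.588 for each). Prkar2b did not pass there either (r = -0.74, adjusted permutation p = 0.468). Without the 3 arrays high in heart muscle or T and NK cell markers r was 0.78 for Akap6 and 0.83 for Prkacb (adjusted permutation p = 0.247 for each). Both of these exclusions were added after the data were seen. Each relation was read on the brighter probe only. Within an age the Prkacb probes followed each other weakly (r = 0.34) and the Akap6 probes more closely (r = 0.70). The other 6 members did not pass: Prkar1a had r = -0.64 and rho = -0.65 (adjusted p = 0.109 for r), and the correlations of the rest lay between -0.53 for Prkaca and 0.46 for Prkar2a. Prkar1b, the other member that was higher with age, had r = -0.43 and rho = -0.28 with Sphkap (adjusted permutation p = 0.334 for r). Within an age, mice with more Sphkap signal were thus not shown to have more Prkar1b signal.

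**Figure D3:**
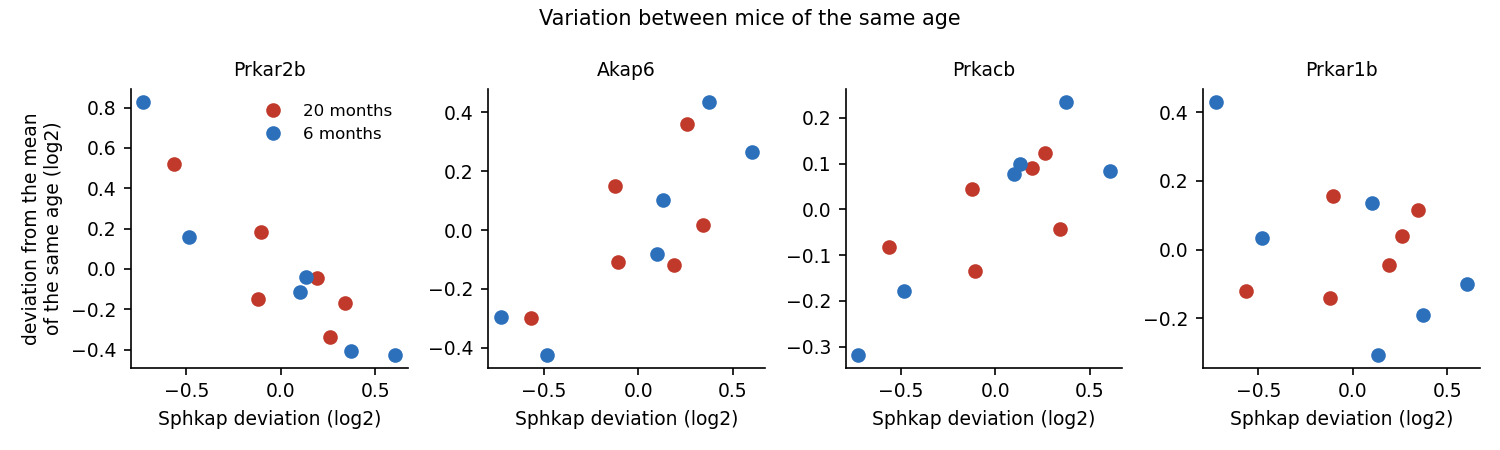
Deviation of Prkar2b, Akap6, Prkacb and Prkar1b (vertical) from the mean of the same age against the deviation of Sphkap (horizontal), both in log2 units. Each point is 1 mouse, red at 20 months and blue at 6 months. Prkar2b falls as Sphkap rises (r = -0.92), Akap6 and Prkacb rise with it (0.80 and 0.81), and Prkar1b shows no relation that passed (-0.43).

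The arrays differed in markers of the cells around the vessel wall, and some of these varied with Sphkap between mice of the same age. Markers of smooth muscle, the labelled tissue's main cell type, were present on every array (9 of 9 tested, mean signal 6.02 to 6.38 at 20 months and 5.86 to 6.47 at 6 months), with a median age difference of 0.00 and 0 called. Markers of other cell types differed more between the ages, again with 0 called in each list. The median age difference was -1.90 for mesothelial markers (0 of 5 above 0), -0.42 for brown adipocyte markers (0 of 8 above 0), -0.11 for white adipocyte markers (1 of 6 above 0) and 0.30 for macrophage markers (7 of 7 above 0). The part of these cell types in the age differences of Sphkap and Prkar1b was not tested. Among the mesothelial markers, Wt1, whose difference is the median of its list, was well above background in 2 of 6 older and 5 of 6 younger mice. Upk3b was so in 2 of 6 and 6 of 6, so the size of the mesothelial difference rests partly on readings at background at 20 months. Markers of brown adipocytes were also present on every array (8 of 8 tested, 4.10 to 5.10 at 20 months and 4.17 to 5.40 at 6 months), as were those of white adipocytes (6 of 6 tested, 5.09 to 5.81 at 20 months and 5.08 to 5.73 at 6 months). The 3 arrays lowest in smooth muscle markers (20 months replicate 1 and 6 months replicates 3 and 6) were also the 3 highest in brown adipocyte markers. They held the lowest Sphkap values of their ages: 0.37 at 20 months, and -0.92 and -1.16 at 6 months. They also held the highest Prkar2b values of their ages: 6.67 at 20 months, and 6.52 and 7.19 at 6 months.

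Over the 12 mice, with age means removed, Sphkap correlated with the smooth muscle markers at r = 0.88 and rho = 0.76 (permutation p adjusted over 36 comparisons of 3 members with 12 marker lists, 0.025 for r and 0.0893 for rho). Against the brown adipocyte markers Sphkap had r = -0.78 and rho = -0.50 (adjusted permutation p = 0.0352 and 0.596), and r was -0.54 without the 2 arrays farthest from the median of these markers. Against the endothelial markers Sphkap had r = -0.81 and rho = -0.75 (adjusted permutation p = 0.025 and 0.0893). Prkar2b showed the opposite signs, with r = -0.84 and rho = -0.76 against smooth muscle markers and r = 0.81 and rho = 0.63 against brown adipocyte markers (adjusted permutation p = 0.025 for each r, 0.0893 and 0.290 for rho). Within slides these correlations were 0.91 and -0.90 for Sphkap and -0.92 and 0.92 for Prkar2b, as a description without a test. Each slide held only 2 arrays of each age, so high values arise easily there. Fibroblast markers, with r = -0.03 for Sphkap and -0.08 for Prkar2b over the 12 mice, also reached 0.92 and -0.88 within slides. The 3 arrays highest in brown adipocyte markers stood apart there (0.49 or more, against 0.14 or less). They also did in smooth muscle markers (-0.22 or less, against -0.002 or more). White adipocyte markers, with age means removed, split the arrays into a group of 5 (0.24 or more) and a group of 7 (-0.17 or less). Over all 12, Sphkap had r = -0.76 and rho = -0.83 with white adipocyte markers (adjusted permutation p = 0.025 and 0.04). Prkar2b had r = 0.77 and rho = 0.92 (adjusted permutation p = 0.025 and 0.0101). These values take in the step between the groups of 5 and 7. Sphkap deviated from its age mean by -0.73 to 0.10 (median -0.48) in the 5 arrays high in these markers and by -0.12 to 0.61 (median 0.26) in the 7 low ones. Prkar2b deviated by -0.11 to 0.83 (median 0.18) in the 5 and by -0.43 to -0.04 (median -0.17) in the 7. Sphkap thus tended to be lower, and Prkar2b higher, where white adipocyte markers were high. Among the 7, Sphkap had r = -0.31 and rho = -0.71 (exact permutation p within ages = 0.493 and 0.146), and Prkar2b had r = 0.70 and rho = 0.89 (exact permutation p = 0.0903 and 0.0347, or 0.181 and 0.0694 adjusted over the 2 genes), so neither passed. These comparisons were chosen after the data were seen. The share of these cell types in the relation of Sphkap to Prkar2b was not tested. Without the 3 arrays highest in brown adipocyte markers the relation of Sphkap to Prkar2b had r = -0.74 over 9 mice and did not pass (adjusted permutation p = 0.468), and the age difference was 1.18 for Sphkap and 1.02 for Prkar1b (adjusted p = 0.00792 by limma).

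**Figure D4:**
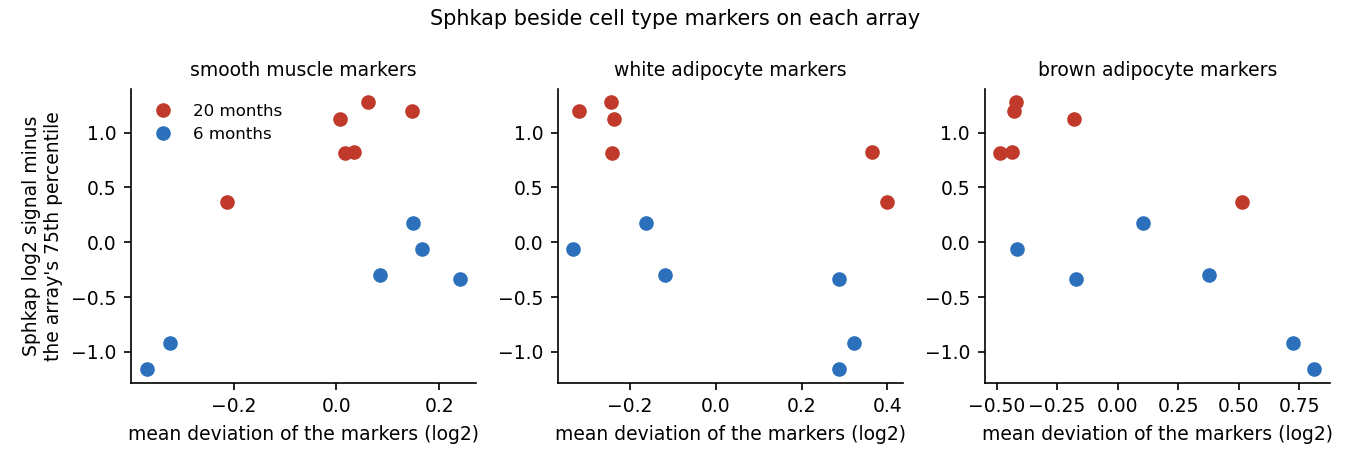
Sphkap signal (vertical, log2 relative to each array's 75th percentile) against the mean deviation of smooth muscle, white adipocyte and brown adipocyte markers from their 12-array means (horizontal, log2). Each point is 1 mouse, red at 20 months and blue at 6 months. At each age Sphkap is lowest in the mice with the least smooth muscle and the most brown adipocyte marker signal.

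Because Prkar1b is known from neurons, nerve markers were read beside it. Of 11 neuronal markers, 7 were tested, 5 had a fitted difference above 0, and 0 were called. Their mean deviation ranged from 0.01 to 0.23 at 20 months and from -0.35 to 0.13 at 6 months, with a median age difference of 0.25. The defining markers Syt1, Dbh, Nefl and Nefm were not well above background on enough arrays to be tested. The fitted differences were 0.67 ± 0.15 (SE) for Uchl1, a neuronal ubiquitin hydrolase (adjusted p = 0.119), 0.35 ± 0.24 for Prph, 0.31 ± 0.35 for Elavl4, 0.25 ± 0.16 for Snap25 and 0.21 ± 0.29 for Tubb3. They were -0.37 ± 0.19 for Stmn2, a microtubule regulator of neurons (adjusted p = 0.671), and -0.09 ± 0.17 for Th, the enzyme that limits catecholamine synthesis. Within an age Prkar1b had r = -0.68 and rho = -0.38 with the neuronal markers (adjusted permutation p = 0.197 and 0.671), and r was 0.06 without the 2 arrays farthest from their median. The part of nerve cells in the Prkar1b difference was not tested.

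The genes whose variation between mice was most like that of Sphkap were ranked by Pearson's r over the 12 mice after removal of the age means, among 13541 genes with a gene symbol, as a description. They were Mark1, a kinase of microtubule-associated proteins (0.96), Usp13, a deubiquitinase (0.94), Npy1r, a neuropeptide Y receptor (0.93), Serinc5 (0.93), Inhba, a subunit of activin (0.93), and Tnfrsf11a, the receptor RANK (0.93). Of these 6, none was called between the ages: Npy1r differed by 0.46 ± 0.16 (SE, adjusted p = 0.430), Inhba by 0.44 ± 0.15 (adjusted p = 0.399), and the other 4 by -0.06 to 0.15. In the same order over 16758 genes, Prkacb ranked 314, Akap6 349 and Prkar1b 12207, and Prkar2b stood near the opposite end at 16459.

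The rest of the cAMP pathway was read from 8 lists, written with earlier results known and not picked for how the genes moved. Of 103 names, 86 were tested. In limma's fit over all genes 0 of the 86 were called higher and 0 lower, and 4 had an unadjusted p under 0.05. The lists' differences ran from -0.28 to 0.47 with a median of 0.01, beside -0.02 over all genes, with 49 above and 37 below 0. No gene of the 8 lists had groups that did not overlap.

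Of 29 names listed for anchoring proteins outside the members, 26 were on the array and 21 were tested. Myo7a, an unconventional myosin that binds type I subunits, had the smallest p, with means of -0.39 ± 0.16 at 20 months and -0.76 ± 0.27 at 6 months (SD), a difference of 0.38 ± 0.12 (SE, adjusted p = 0.364). Akap7, an anchor of ion channels and phospholamban, averaged 1.82 ± 0.27 at 20 months and 2.10 ± 0.07 at 6 months, a difference of -0.28 ± 0.11 (adjusted p = 0.540). A dimmer Akap7 probe differed by -0.28 ± 0.14, and a further one, nearly as bright as the first at 20 months, by 0.01 ± 0.19. All 4 genes listed as PKA inhibitors or a related kinase were tested, and Prkx, a PKA-like catalytic kinase, differed by 0.10 ± 0.08 and the inhibitor Pkia by 0.11 ± 0.14. Of 16 cAMP phosphodiesterases, which degrade cAMP, 14 were tested, with Pde7a at 0.42 ± 0.23 (adjusted p = 0.680) and Pde2a at -0.23 ± 0.17 (adjusted p = 0.761). Other cAMP effectors were represented by 3 tested genes, among them Rapgef3 (Epac), an exchange factor that cAMP activates without PKA, at 0.12 ± 0.14, and Popdc2, a cAMP-binding membrane protein of muscle, at -0.14 ± 0.11.

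Downstream of PKA, the 9 CREB factors and coactivators had a median difference of -0.04, with Creb3 at 0.14 ± 0.10 and Crem at -0.10 ± 0.08. The 10 tested CREB target genes had a median of 0.03, with Bdnf, a neurotrophin, at 0.30 ± 0.26 (adjusted p = 0.780) and Rgs2, a brake on G protein signalling in vessels, at -0.21 ± 0.22 (adjusted p = 0.832). Several targets varied widely between mice: Fos averaged 1.92 ± 0.96 at 20 months and 1.53 ± 0.95 at 6 months (SD, n = 6 each). The 12 PKA substrates of muscle and fat had a median of 0.00, with the potassium channel Kcnq1 at 0.24 ± 0.15 (adjusted p = 0.719) and the small heat shock protein Hspb6, a relaxation-linked substrate of smooth muscle, at -0.17 ± 0.11 (adjusted p = 0.744).

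The sphingosine pathway was included because Sphkap is named for its binding to sphingosine kinase. Of its 15 genes, 13 were tested. Sphk1, the kinase itself, averaged 1.92 ± 0.41 at 20 months and 1.45 ± 0.28 at 6 months (SD, n = 6 each), a difference of 0.47 ± 0.18 (SE) with an unadjusted p of 0.024 and an adjusted p of 0.520 in limma's fit, so it did not pass. A dimmer Sphk1 probe differed by 0.59 ± 0.18 and did not pass over all probes (unadjusted p = 0.00573, adjusted p = 0.339 by limma). S1pr3, a receptor for sphingosine 1-phosphate on smooth muscle, differed by 0.25 ± 0.11 (adjusted p = 0.603), and Sphk2, the second kinase, by -0.08 ± 0.09.

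**Figure D5:**
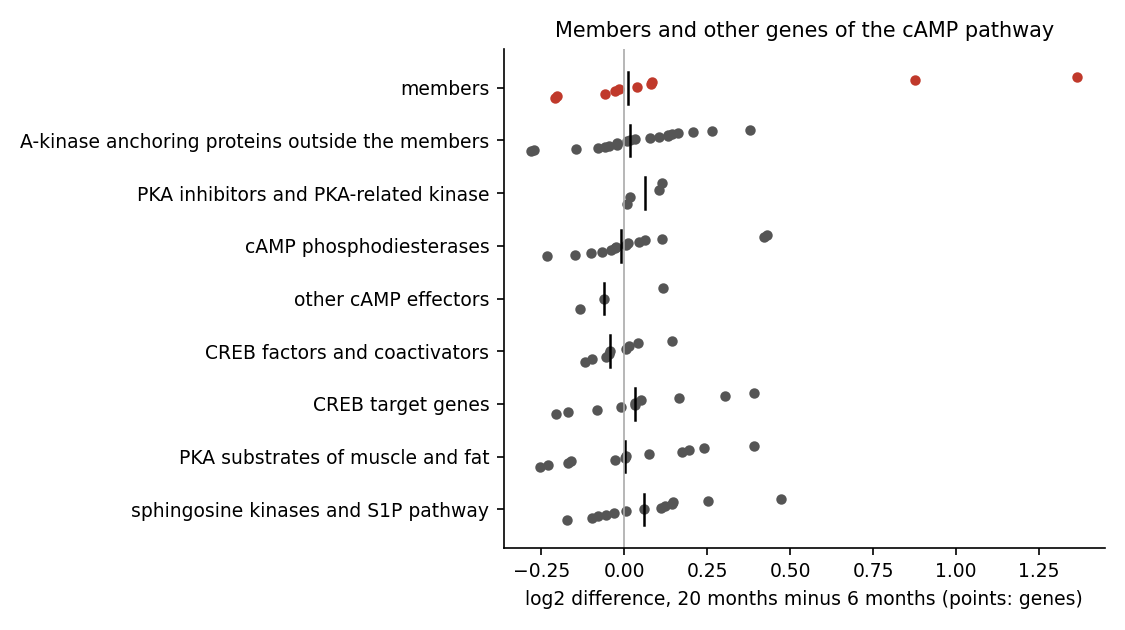
Log2 difference (20 months minus 6 months) of the 10 member genes (top row, red) and of the tested genes of 8 lists of the cAMP and sphingosine pathways (grey). Each point is 1 gene, and the black bar is the median of its row. Sphkap (1.37) and Prkar1b (0.88) lie to the right of every other point, and all 86 listed genes lie between -0.28 and 0.47.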

How the data were processed

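Per the labels' protocols, total RNA of 1 mouse per array was labelled with Cy3. Per the file headers, the deposited scanner files hold intensity values that Agilent Feature Extraction had background-subtracted and detrended, unscaled between arrays, with probe positions on mm9. A log2 table was also deposited for these arrays, with each probe's median at 0 and its scale and steps not given in the sources used here.

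Spots marked as outliers by the software were dropped, log2 processed signals were averaged per probe, and the 75th percentile of an array's gene probes was subtracted from its values. Of 55681 gene probes 55630 were kept. A probe was tested if well above background on at least 6 of 12 arrays. Genes were named by accession (26413 probes), by symbol (4594) or as on the array, through a RefSeq table of GRCm38.p6, and represented by their brightest probe. The share of gene probes well above background was 47.5% to 55.8% per array. The ages were compared with limma 3.58.1 in R 4.3.3, with Benjamini-Hochberg adjustment over all genes tested, or all probes tested where stated. The error of a difference is the standard error of that fit. The procedure was tested on simulated data.

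The members, lists and tests were chosen with earlier results of these data known. All members and their probes are named, with the 2 smallest p of each list and the 6 genes most like Sphkap. The neuronal markers, Fos and Sphk2 were named after their values were seen. Replicate numbers did not pair the mice: same-numbered deviations correlated at -0.36 to 0.32. The alternatives were other background corrections, scalings, filters, probe choices, slide and replicate blocks, and arrays left out. A planned comparison of protein sequences was not run, and no protein sequences were used here. The number of arrays limits the precision.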

Additional observations from a re-analysis of the deposited data

Results flagged for a closer look

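Of 68 groups of 6 arrays examined (each age, for the member probes and the named genes of the lists), 3 held an array that stood far from the others, at a gap to its nearest neighbour above 0.625 of the group's whole range. Chance alone flags about 1 group in 20. Akap7 read 2.32 on 20 months replicate 1, where the next highest array was at 1.83 (0.633 of the range). Akap7 also read 2.23 on 6 months replicate 3, with the next highest at 2.09 (0.630 of the range). Pkia read 0.77 on 20 months replicate 1, below the next lowest array at 1.01 (0.626 of the range). Both arrays were among the 3 highest in brown adipocyte markers, whose part in these values was not tested. None of the 10 members was set apart in this way.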

How the results depend on the processing

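Across 29 alternatives the Sphkap difference, given as a description, lay between 1.06 (normexp background correction) and 1.80 (slide 3 alone). The Prkar1b difference lay between 0.60 (normexp) and 1.10 (mean over a gene's probes) and passed in 25 of the 26 alternatives that allowed a test, with adjusted p between 0.00011 and 0.0701. The 1.10 and the 0.00011 both come from the mean over a gene's probes. That mean takes in the dimmer probe, which could be tested only because of its signal in the older group, so it adds no support. Prkar1b missed with the replicate number as a block (adjusted p = 0.0701). That block, whose numbers do not pair the mice, gave 6 genes higher, 0 lower and 0 members called, against 44, 9 and 2 without it (counts of members in this part include Sphkap, which the same contrast chose), and only replicate number 2 correlated best with its own number. Genes called higher numbered 29 with median scaling, 21 with no filter on dim probes, 68 with the slide as a random block and 26 without the arrays high in heart muscle or T and NK cell markers, and 19 to 48 with each array left out in turn. Genes called lower numbered 5 with normexp, 4 with median scaling, 3 with no filter and 4 without those arrays, and 2 to 11 with each array left out. Members called higher numbered 1 with no filter, 1 with the mean over probes, 1 without those arrays, and 1 to 2 with each array left out: leaving out 20 months replicate 2, 3, 4, 5 or 6, or 6 months replicate 3 or 4, gave 1. Prkar1b passed in each of these 12 fits, with adjusted p of 0.00169 to 0.0348, as it did with no filter, with the mean over probes and without those arrays. A fall of this count from 2 to 1 thus reflects only Sphkap, which the same contrast chose, and is not read as a test of that gene. Members called lower and listed genes called stayed at 0 in all of these fits. Of the members correlated with Sphkap within an age, 3 in all, 1 passed without the 2 farthest arrays. Without the heart and T cell arrays (r = -0.90 for Prkar2b) or without the arrays highest in brown adipocyte markers, 0 passed. Within slides 0 passed, where a pass was hardly possible (64 permutations, smallest possible p 0.0312 before adjustment over the members). Of the other 22 named genes, 0 passed under any alternative and 10 kept their sign in all. Probes near background, such as the dimmer Sphkap and Prkar1b probes at 6 months, limit what can be read from them. The alternatives that left out the arrays highest in brown adipocyte markers, and the correlations without the heart and T cell arrays, were added after seeing the data.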
